A study of Mus musculus with 4 samples.

Results

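The genes followed here encode interleukin-6 (Il6), the subunits of the interleukin-12 family (Il12a, Il12b, Il23a, Il27 and Ebi3), interleukin-10 (Il10), interleukin-15 (Il15), leukemia inhibitory factor (Lif) and oncostatin M (Osm). They were chosen by name, and all 10 had a row among the 37681 gene IDs of each count table. Their transcripts were measured by mRNA sequencing in 4 libraries, 1 per group, of bone marrow cells from wild-type C57BL/6 mice. The groups were cells with shRNA against lncRNA-COX2 given 100 nM Pam3Cys4 for 5 h, cells without shRNA given the same stimulus, unstimulated cells with shRNA and unstimulated cells without shRNA. Every culture was kept in DMEM that held 20% L929 supernatant, which supplies M-CSF and so favours macrophages, along with 10% fetal bovine serum. Pam3Cys4 is a synthetic lipopeptide sensed by Toll-like receptors 2 and 1, and an shRNA is a short hairpin RNA that lowers a target transcript by RNA interference. Libraries without shRNA have EV in their titles, an abbreviation left unexplained, so whether those cells held a control construct is not known. The level of lncRNA-COX2 was not analysed here, and the strength of the knockdown was therefore not determined. The labels do not say how many animals or cultures stood behind a library, or whether the shRNA cells came from 1 clone.

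IL-6, leukemia inhibitory factor and oncostatin M signal through receptors that share the chain gp130 (Il6st) and act mainly through STAT3. The IL-12 family is built from pairs. The p40 chain (Il12b) joins p35 (Il12a) to form IL-12, or p19 (Il23a) to form IL-23, and EBI3 joins p28 (Il27) to form IL-27. Macrophages make many of these proteins when Toll-like receptors are engaged. IL-10 restrains macrophage activation, and IL-15, shown to lymphocytes on its own receptor chain, sustains NK and memory T cells.

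Gene reads per library ranged from 47385277 to 65826838. The cells read as macrophages: all 8 macrophage markers had reads in each library, with a summed level of 8107 and 6519 CPM with shRNA (Pam3Cys4 and unstimulated) and 8411 and 5800 CPM without. Single markers differed by shRNA state: Mertk was 7.36-fold higher with shRNA after Pam3Cys4 (5.55 to 9.93) and 7.90-fold higher unstimulated (6.95 to 9.02), and after Pam3Cys4 Fcgr1 was 4.12-fold higher (3.98 to 4.25) and Itgam 2.02-fold lower (1.99 to 2.05). CPM is the usual read count relative to library size, with sizes scaled by edgeR's TMM method. Of 6 mast cell, 6 fibroblast and 6 T and NK cell markers, none passed 0.1 CPM in sum in any library, and Cd3d, Cd3e, Cd3g and Col1a2 were at 0 throughout. Granulocyte, B cell and erythroid lists summed to at most 1.07 CPM, and Elane was at 0. The endothelial list summed to 936 and 734 counts with shRNA and 348 and 318 without, with Emcn at 0. Most of these counts were Kdr, with 745 and 600 counts with shRNA and 191 and 196 without, 3.59-fold higher with shRNA after Pam3Cys4 (3.06 to 4.23) and 2.39-fold higher unstimulated (2.03 to 2.83). The libraries with and without shRNA also stood apart in Y-linked genes. Ddx3y had 1116 and 921 counts with shRNA against 4 and 3 without, and Kdm5d had 665 and 730 against 1 and 0 (Pam3Cys4 and unstimulated), whereas Eif2s3y had 0 and 0 with shRNA against 6 and 3 without, and Xist had at most 2 counts in any library. The part of these differences in the shRNA ratios below was not tested. With 1 library per group no difference was checked against replicates or tested, and every interval is a 95% interval for counting error only. In bulk RNA, fewer cells of a type and less RNA per cell cannot be told apart.

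The upstream sequences of Il6 and Lif are shown because each of these genes was nearest to the other in its profile over the 4 libraries, as described further on. They are the 250 bases before the start in RefSeq's annotation of GRCm38.p6, at chr5:30012864-30013113 for Il6 and chr11:4257318-4257567 for Lif, both on the plus strand. The counts were made on another build, NCBIM37, and no coordinate was moved between them. Capitals mark the letters of 5 motifs searched on both strands: kB, bound by NF-kB, as GGGNNTTTC; C/EBP as TTGNGNAA; AP-1 as TGANTCA; the interferon response element as GAAANNGAA; and the STAT site as TTCNNNGAA.
Il6: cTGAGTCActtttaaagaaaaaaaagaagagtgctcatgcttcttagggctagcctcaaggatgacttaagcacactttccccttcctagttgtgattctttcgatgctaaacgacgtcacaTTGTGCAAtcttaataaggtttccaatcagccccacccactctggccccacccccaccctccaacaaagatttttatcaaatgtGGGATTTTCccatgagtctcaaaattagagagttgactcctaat
Lif: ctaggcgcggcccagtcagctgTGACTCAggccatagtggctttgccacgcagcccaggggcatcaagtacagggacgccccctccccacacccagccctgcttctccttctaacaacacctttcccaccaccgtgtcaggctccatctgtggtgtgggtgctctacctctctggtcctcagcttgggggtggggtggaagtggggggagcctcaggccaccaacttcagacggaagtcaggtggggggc
Il6 held an AP-1 match at -249 to -243, a C/EBP match at -128 to -121 and a kB match at -44 to -36, counted from the start. Lif held an AP-1 match at -228 to -222. None of these matches overlapped another. Among all 32851 promoter windows of this length, 6.75% held the AP-1 letters, 11.7% the C/EBP letters, 3.72% the kB letters, 7.13% the interferon response letters and 7.02% the STAT letters. The windows of Il12b and Ebi3, and 2 windows of Il12a, held none of the 5. A match is a description of letters and not a measured binding site, and looser forms of the motifs were not searched.

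In stimulated cells the cytokines divided into 2 sets by shRNA state. Il6, Lif, Osm and the IL-23 subunits Il12b and Il23a were lower with shRNA, while Il27, Ebi3, Il10 and Il15 were higher with it. A gene counted as called when its ratio reached 2-fold in either direction, the interval excluded 1 and the larger of the levels was 5 CPM or more. Between the stimulated libraries 6 of the 10 genes were measured at that level. Of these 3 were called lower (Il6, Lif and Osm) and 3 higher (Il27, Ebi3 and Il15), beside 5.58% of 9702 genes called lower and 9% called higher. Il6, Il27 and Il15 passed the limit only through the library where they were higher, so these counts are no support. Dropping the limit of 5 CPM made it 5 lower (with Il12b and Il23a) and 4 higher (with Il10), beside 9.32% and 10.4% of 15540 genes. These genes were chosen with earlier results of these data known, so the counts describe them and do not test them.

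**Figure D1:**
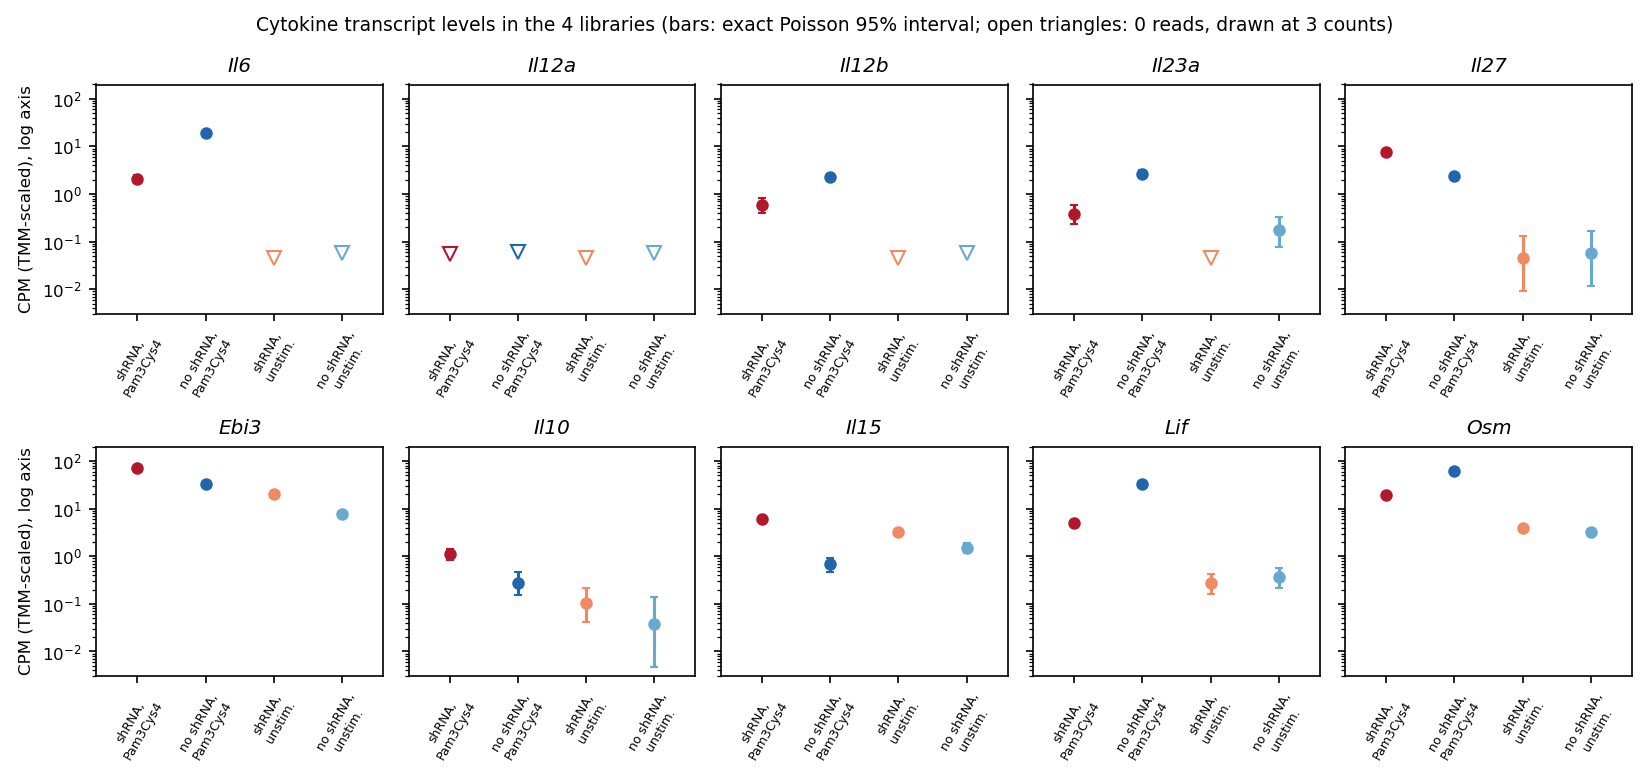
Each panel shows the level of 1 gene in CPM on a log axis in the 4 libraries, from left to right shRNA with Pam3Cys4, no shRNA with Pam3Cys4, shRNA unstimulated and no shRNA unstimulated. Points are single libraries, bars are exact Poisson 95% intervals, and open triangles mark 0 reads, drawn at 3 counts. Il6 stands at 2.08 CPM with shRNA and 19.2 CPM without after Pam3Cys4, and Il15 is the panel where stimulated cells without shRNA are the lowest, at 0.673 CPM.

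Il6, a driver of fever and the acute-phase response, had 114 counts (2.08 CPM) with shRNA and 971 counts (19.2 CPM) without after Pam3Cys4, and 0 counts in both unstimulated libraries. It was thus read only in stimulated cells, and mostly in those without shRNA. In stimulated cells the Il6 level was 9.26-fold lower with shRNA (7.62 to 11.3). Set against a floor of 3 counts per library, Il6 after stimulation was 46.1-fold higher with shRNA and 334-fold higher without. The exact intervals began at 36.9-fold and 271-fold. Its shRNA ratio was the 122nd lowest of 9702 genes. Il6 passed the limit of 5 CPM only through the library without shRNA, so that rank is no support.

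Lif, which maintains stem cells and acts on many tissues, had 275 counts (5.01 CPM) with shRNA and 1640 counts (32.5 CPM) without after Pam3Cys4, and 18 counts (0.270 CPM) and 19 counts (0.365 CPM) in unstimulated cells. The unstimulated libraries were alike within counting error, with a ratio of 0.741 (0.367 to 1.49). In stimulated cells Lif was 6.48-fold lower with shRNA (5.70 to 7.39). Its level after Pam3Cys4 was 18.5-fold higher than in unstimulated cells with shRNA (11.5 to 31.8) and 89.1-fold higher without (56.8 to 148). The stimulation fold was 4.80-fold smaller with shRNA (2.49 to 9.27).

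Osm, which induces acute-phase and matrix genes in other cells, had 1063 counts (19.4 CPM) with shRNA and 3076 counts (60.9 CPM) without after Pam3Cys4, and 259 counts (3.89 CPM) and 165 counts (3.17 CPM) in unstimulated cells. Of Il6, Lif and Osm, only Osm had a clear level before stimulation. It was 3.14-fold lower with shRNA after Pam3Cys4 (2.93 to 3.37) and 1.23-fold higher in unstimulated cells, where the interval began at 1.01. On the log2 scale the unstimulated ratio was 0.30, with an interval from 0.0092. That ratio was 0.18 with library totals and 0.23 with upper-quartile scaling, so whether the interval excludes 1 depends on the scaling. The stimulation fold of Osm was 4.98 with shRNA (4.34 to 5.73) and 19.2 without (16.4 to 22.6), so 3.86-fold smaller with shRNA (3.14 to 4.75). Over the 9857 genes with 10 counts or more in every library, 1.64% had a stimulation fold called smaller with shRNA and 1.94% larger. Among the cytokines, 4 had such counts, of which Lif and Osm were called smaller and Il15 larger.

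The IL-12 and IL-23 subunits were low, with Il12a at 0 throughout and Il12b and Il23a under 5 CPM in each library. Il12a, the p35 chain needed for IL-12, had 0 counts in all 4 libraries, which allows at most 0.0547 and 0.0450 CPM with shRNA (Pam3Cys4 and unstimulated) and 0.0594 and 0.0576 CPM without. Il12b, the shared p40 chain, had 32 counts (0.583 CPM) with shRNA and 113 counts (2.24 CPM) without after Pam3Cys4, and 0 counts in both unstimulated libraries. It was 3.84-fold lower with shRNA after stimulation (2.57 to 5.87). Against the same floor, stimulated cells held 12.9 times the unstimulated level with shRNA and 38.9 times without. The exact intervals began at 9.93 and 31.1. Il23a, the p19 chain of IL-23, had 21 counts (0.383 CPM) with shRNA and 135 counts (2.67 CPM) without after Pam3Cys4, and 0 and 9 counts in unstimulated cells. As for Il6, stimulated cells without shRNA held the most and stimulated cells with shRNA came next. Il23a was 6.99-fold lower with shRNA after stimulation (4.39 to 11.7). In unstimulated cells it was 3.83-fold lower against the floor, where the interval began at 2.52. After stimulation it was 8.50-fold higher with shRNA against the floor, where the interval began at 6.32, and 15.5-fold higher without (7.92 to 34.6). Il12b and Il23a did not reach 5 CPM and are not in the counts of called genes.

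IL-12 and IL-23 are also made by dendritic cells. The summed level of the dendritic cell list was lower with shRNA, and most of its counts without shRNA were Itgax. Its 8 markers summed to 3.30 and 0.585 CPM with shRNA (Pam3Cys4 and unstimulated) and 26.7 and 7.04 CPM without, and 4 of 8 had reads with shRNA against 6 of 8 without. Itgax (CD11c), which macrophages also express, had 89 and 17 counts with shRNA and 1254 and 246 without. The whole list had 181 and 39 counts with shRNA and 1351 and 367 without. Zbtb46 had 11 and 14 counts with shRNA and 54 and 102 without, while Xcr1 had 80 and 7 with shRNA and 35 and 10 without. Ccr7 and Cd209a were at 0 in every library, Flt3 had at most 1 count and Clec9a at most 3. The part of any dendritic cells in the cytokine levels was not tested.

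The IL-27 subunits differed in the other direction. Il27, the p28 chain, had 410 counts (7.47 CPM) with shRNA and 119 counts (2.36 CPM) without after Pam3Cys4, and 3 counts in each unstimulated library. It was 3.17-fold higher with shRNA after stimulation (2.58 to 3.92). Over unstimulated cells it was 166-fold higher with shRNA (56.4 to 808), the 9th highest ratio of 9601 genes, and 40.9-fold higher without (13.7 to 201). Il27 was near 0 before stimulation and passed the limit of 5 CPM only through the stimulated library, so that rank is no support. An exon of Il27 overlaps Apobr on the opposite strand in GENCODE vM21, and the strand setting of the counting is not given in the sources used here. Apobr had 6256 and 5657 counts with shRNA and 5575 and 3805 without, in libraries where Il27 had 410 and 3, and 119 and 3.

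Ebi3, the partner of p28, had 3944 counts (71.8 CPM) with shRNA and 1636 counts (32.4 CPM) without after Pam3Cys4, and 1377 counts (20.7 CPM) and 395 counts (7.58 CPM) in unstimulated cells. It was read well in all 4 libraries and was higher with shRNA in both states. The ratio was 2.22-fold after stimulation (2.09 to 2.35) and 2.73-fold in unstimulated cells (2.44 to 3.06). After Pam3Cys4 it was 3.48-fold higher with shRNA (3.27 to 3.70) and 4.27-fold higher without (3.83 to 4.78), a ratio of stimulation folds of 0.813 (0.717 to 0.923), under the 2-fold threshold. Ebi3 was the only cytokine of the 10 with 5 CPM in unstimulated cells and was called higher there, beside 7% of 9651 genes called higher and 4.82% lower. With no limit on CPM, Il15 was called higher as well and Il23a lower, beside 8.43% and 9.48% of 15631 genes. Ebi3 also overlaps an annotated antisense transcript, Gm16712, which has no row in the tables.

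Il10, which dampens macrophage cytokine output, had 60 counts (1.09 CPM) with shRNA and 14 counts (0.277 CPM) without after Pam3Cys4, and 7 and 2 counts in unstimulated cells. These are low counts, yet the order shRNA above no shRNA held in both states. Il10 was 3.94-fold higher with shRNA after stimulation (2.18 to 7.64), while the unstimulated ratio of 2.74 (0.521 to 27.0) was within counting error. Stimulated over unstimulated cells, it was 10.4-fold higher with shRNA (4.75 to 27.0) and 7.22-fold higher without (1.66 to 65.5).

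Il15 was the only one of the 9 cytokine genes with reads whose direction after stimulation differed by shRNA state. It had 341 counts (6.21 CPM) with shRNA and 34 counts (0.673 CPM) without after Pam3Cys4, and 211 counts (3.17 CPM) and 79 counts (1.52 CPM) in unstimulated cells. Stimulated cells without shRNA thus held the least Il15 of the 4 and stimulated cells with shRNA the most. Il15 was 9.23-fold higher with shRNA after stimulation (6.48 to 13.5), the 155th highest ratio of 9702 genes, and 2.09-fold higher in unstimulated cells (1.61 to 2.74). Il15 passed the limit of 5 CPM only through the stimulated library with shRNA, so that rank is no support. After Pam3Cys4 it was 1.96-fold higher with shRNA (1.65 to 2.34) and 2.25-fold lower without (1.49 to 3.47). The ratio of the stimulation folds was 4.42 (2.85 to 6.84), called larger with shRNA.

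**Figure D2:**
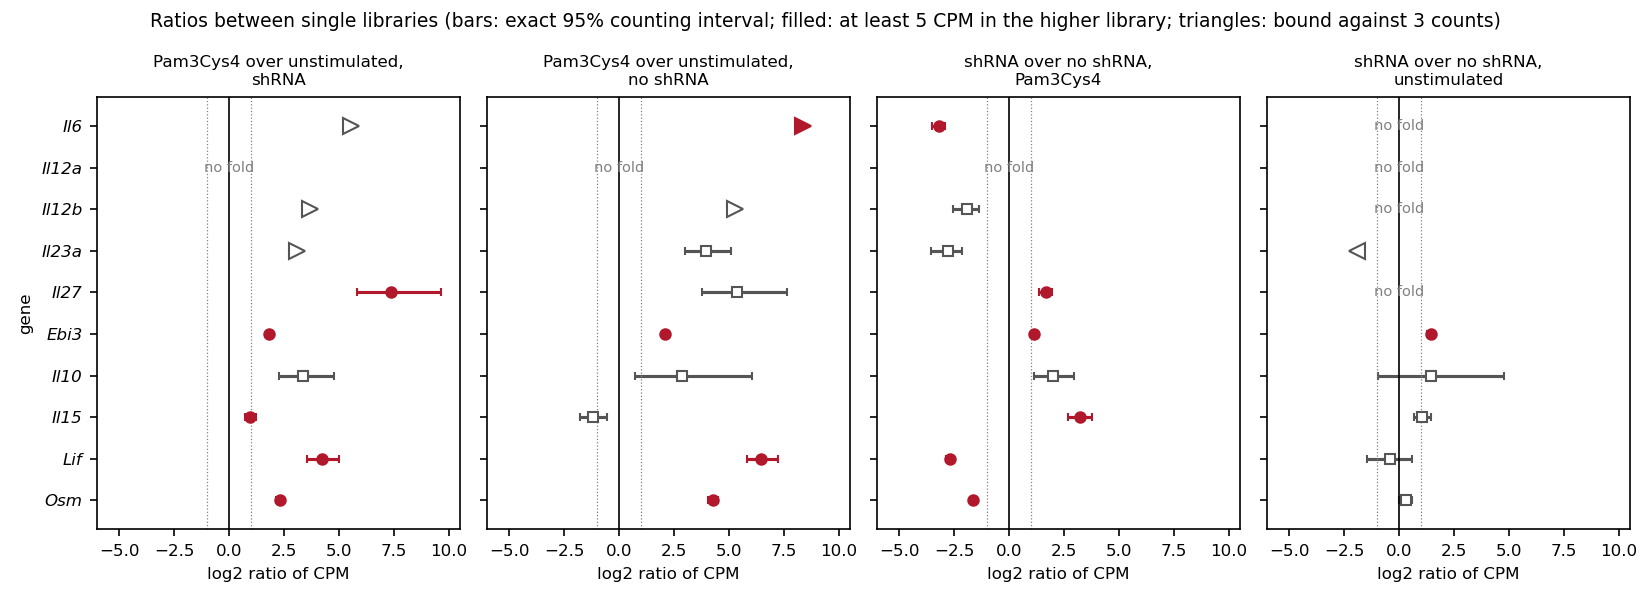
The log2 ratio between 2 single libraries is given for each gene in 4 comparisons, with dotted lines at 2-fold. Filled symbols mark genes that reach 5 CPM in 1 of the libraries, bars are exact 95% counting intervals, triangles are bounds against 3 counts, and no fold is given where both counts were at most 3. In the third panel Il6, Il12b, Il23a, Lif and Osm lie left of 0 (Il6 at -3.21) and Il27, Ebi3, Il10 and Il15 right of it (Il15 at 3.21).

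Over the stimulation comparisons, 5 of the 10 genes reached 5 CPM with shRNA and 4 did without. With shRNA 4 were called higher (Il27, Ebi3, Lif and Osm) and Il15, at 1.96-fold, was not, beside 6.3% of 9601 genes called higher and 3.53% lower. Lif, at 5.01 CPM, was under the limit with library totals, DESeq2 size factors or upper-quartile scaling, which left 3 called. Without shRNA all 4 were called higher (Il6, Ebi3, Lif and Osm), beside 7.07% of 9555 genes called higher and 6.51% lower. A gene near 0 before stimulation could reach 5 CPM only by being high after it, so these counts are no support. With no limit on CPM, 8 were called higher in each shRNA state, beside 8.35% of 15446 genes with shRNA and 8.68% of 15342 without, and Il15 was called lower without shRNA, beside 5.77% of all genes called lower with shRNA and 8.1% without. The numbers of genes called higher and lower were 605 and 339 with shRNA and 676 and 622 without, or 494 and 466, and 541 and 898, when library totals alone set the scale. Over all genes the median (log2) then lay at -0.12 with shRNA and -0.19 without, in place of 0.02 and -0.00080.

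Levels of different genes were compared as CPM per kb of exon, using exon lengths from GENCODE vM21. After Pam3Cys4 with shRNA, Ebi3 led with 62.3 CPM per kb, followed by Osm (8.52), Il27 (7.32), Il15 (2.75), Lif (1.15), Il6 (0.855), Il10 (0.834), Il12b (0.296) and Il23a (0.170). Il6 and Il10 could not be ordered within counting error (ratio 1.03, 0.744 to 1.43), nor could Il12b and Il23a. After Pam3Cys4 without shRNA the order was Ebi3 (28.1), Osm (26.8), Il6 (7.92), Lif (7.46), Il27 (2.31), Il23a (1.19), Il12b (1.14), Il15 (0.298) and Il10 (0.212). There Ebi3 and Osm, Il6 and Lif, Il23a and Il12b, and Il15 and Il10 were neighbours within counting error.

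In unstimulated cells Ebi3, Osm and Il15 were the 3 highest with shRNA (17.9, 1.71 and 1.40 CPM per kb) and without (6.57, 1.39 and 0.670), and every other member was under 0.1 CPM per kb. Among those others, neighbours in the order did not differ beyond counting error. Of the IL-27 pair, Ebi3 exceeded Il27 8.51-fold per kb after stimulation with shRNA (7.69 to 9.44) and 12.2-fold without (10.1 to 14.8). Il27 overlaps Apobr, as given above, and the part of that overlap in these ratios was not tested. Of the IL-23 pair, Il12b stood to Il23a as 1.74 with shRNA (0.973 to 3.18) and 0.956 without (0.738 to 1.24), so their levels did not differ beyond counting error in either library. These are transcript ratios, and protein was not measured.

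**Figure D3:**
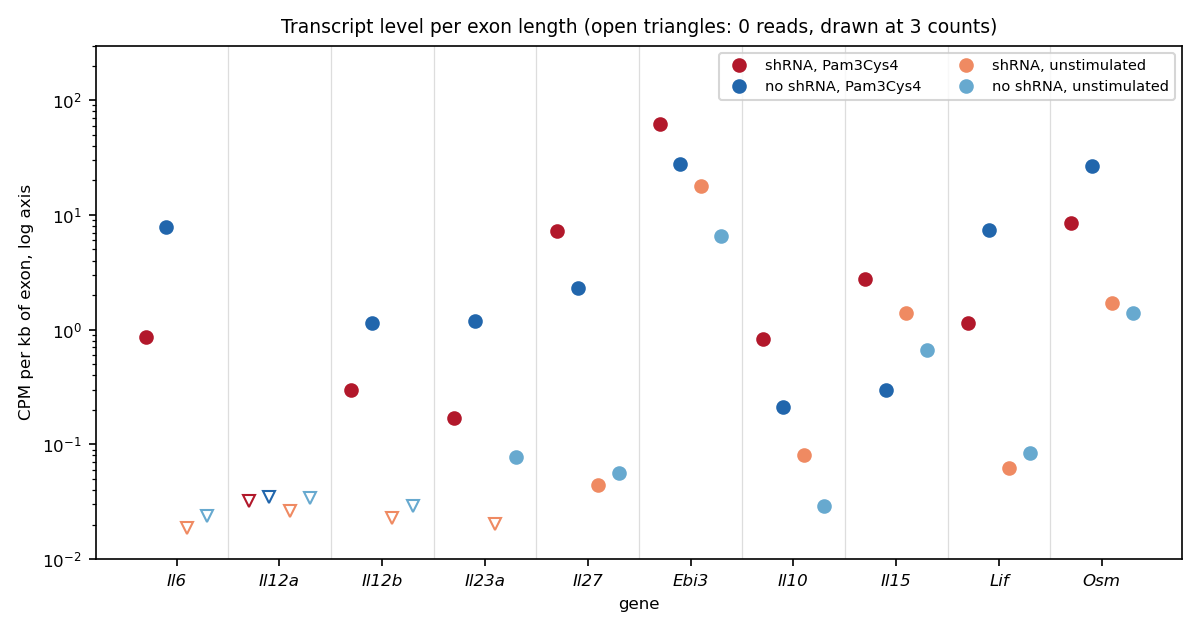
Levels of the 10 genes per exon length, in CPM per kb on a log axis, with the 4 libraries side by side and open triangles for 0 reads, drawn at 3 counts. Ebi3 is the highest gene in each library, and Il12a has 0 reads in all 4.

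The receptor chains for these cytokines were read selectively. Of 13 chains, Il23r, Il27ra, Osmr and Il2rb had at most 3 counts in any library, so receptors for IL-23, IL-27 and oncostatin M were near or at 0 for 1 chain each. After Pam3Cys4, 7 chains had 5 CPM, of which Il15ra and Il12rb2 were called higher with shRNA and 0 lower (median log2 0.53, all genes 0.05), beside the 9% and 5.58% of all genes given above. Il15ra and Il12rb2 passed the limit only through the library with shRNA, so this count is no support. Il15ra, the chain that presents IL-15, had 746 counts (13.6 CPM) with shRNA and 131 counts (2.59 CPM) without after Pam3Cys4, and 322 counts (4.83 CPM) and 166 counts (3.18 CPM) in unstimulated cells. Stimulated cells with shRNA were thus the highest, as for Il15. The libraries without shRNA were close, at 2.59 and 3.18 CPM, and no interval is given for their order. Il15ra was 5.24-fold higher with shRNA after stimulation (4.35 to 6.36), and its ratio of stimulation folds was 3.45 (2.65 to 4.50).

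In unstimulated cells, of 7 chains 1 was called higher and 1 lower (median log2 0.64, all genes 0.02), beside 7% and 4.82% of all genes. These chains, Il12rb2 and Lifr, each passed the limit only through the library where they were higher, so these counts are no support. Il12rb2, a signalling chain of the IL-12 receptor, was 4.50-fold higher with shRNA unstimulated (3.74 to 5.46) and 4.56-fold higher after Pam3Cys4 (3.79 to 5.52). Lifr, the LIF receptor, had 11 and 56 counts with shRNA (Pam3Cys4 and unstimulated) and 130 and 730 without, and was 16.7-fold lower with shRNA in unstimulated cells (12.7 to 22.3). Il6st and Il6ra, the chains for IL-6, had between 2966 and 6630 counts in each library and were called in no comparison. With stimulation, Il15ra was called higher with shRNA, and without shRNA Il10ra was called higher (2.55-fold, 2.42 to 2.68) and Lifr lower (5.44-fold, 4.51 to 6.61). There too, Il15ra and Lifr passed the limit only through the library where they were higher.

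The 12 JAK, STAT and SOCS genes reported here carry these signals or feed back on them. After Pam3Cys4, 0 of 10 measured were called higher with shRNA and 1 lower (median log2 0.30), beside 9% and 5.58% of all genes. The lower one, Cish, passed the limit only through the library without shRNA, so this count is no support. Cish, an inhibitor induced by STAT5, had 144 and 24 counts with shRNA (Pam3Cys4 and unstimulated) and 3054 and 31 without, 23.0-fold lower after Pam3Cys4 (19.5 to 27.4), and its stimulation fold was 14.0-fold smaller with shRNA. In unstimulated cells 0 of 8 were called higher and 1 lower (median log2 -0.060), beside 7% and 4.82% of all genes, the lower one being Socs3, an inhibitor of gp130 signalling, at 4.11-fold (3.63 to 4.65). Socs3 had 20102 and 340 counts with shRNA and 14677 and 1092 without, a stimulation fold 5.17 times as large with shRNA (4.57 to 5.86). Socs1, another such inhibitor, had 452 and 241 counts with shRNA and 268 and 39 without, below 5 CPM in both unstimulated libraries, and its stimulation fold was 3.11-fold smaller with shRNA. Stat3 itself was 1.67-fold higher with shRNA unstimulated (1.62 to 1.72) and was not called.

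**Figure D4:**
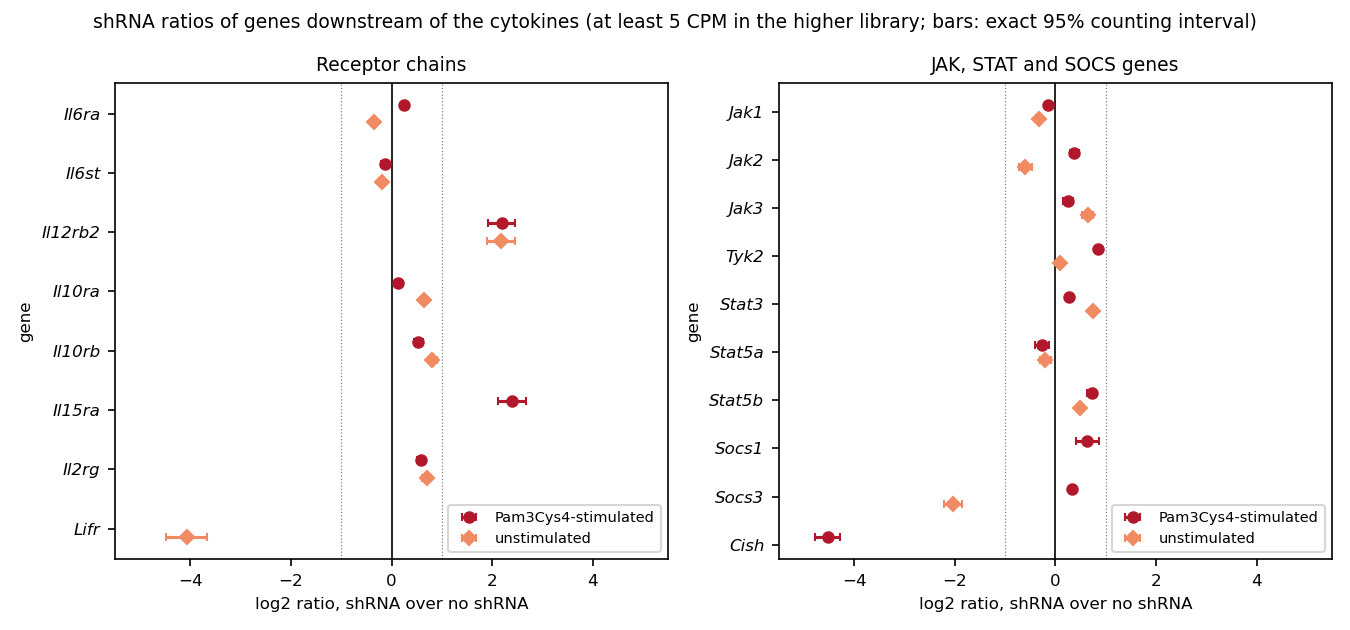
The log2 ratio of shRNA over no shRNA is shown for receptor chains (left) and JAK, STAT and SOCS genes (right) that reach 5 CPM in 1 of the libraries compared, after Pam3Cys4 (circles) and in unstimulated cells (diamonds). Bars are exact 95% counting intervals between single libraries. Il12rb2 lies right of the 2-fold line in both states, and Cish, 23.0-fold lower after Pam3Cys4, lies farthest to the left.

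Of 21 transcription factor genes known to act on Il6, Il12b, Il10 or Il15, 20 were measured. After Pam3Cys4, 5 were called higher with shRNA and 0 lower (median log2 -0.06), beside 9% and 5.58% of all genes. Irf7 and Irf1, which act in interferon responses, were 17.3-fold (16.7 to 17.9) and 4.05-fold higher (3.78 to 4.35), Irf5 was 4.28-fold higher (4.11 to 4.45) and Fos, a part of AP-1, was higher by 2.46 on the log2 scale (5.11 to 5.92 as a fold). Stimulated over unstimulated cells, 12 of the 20 were called higher with shRNA and 11 without, beside 6.3% and 7.07% of all genes. Called lower were 0 and 2, beside 3.53% and 6.51%. Both sets of higher genes held Nfkbiz, an NF-kB cofactor needed for Il6 induction. It was 64.8-fold higher with shRNA (58.2 to 72.4) and 71.4-fold higher without (63.9 to 80.1). In unstimulated cells 3 were called higher and 1 lower (median log2 0.16), beside 7% and 4.82% of all genes. There Irf7 was 27.6-fold (25.9 to 29.6), Bcl3 2.83-fold (2.52 to 3.19) and Fos 2.21-fold higher with shRNA (2.04 to 2.40), and Maf was 4.27-fold lower (4.04 to 4.51). Of 10 genes that regulate cytokine mRNA, 0 were called higher with shRNA after Pam3Cys4 and 1 lower, beside 9% and 5.58% of all genes. The lower one was Arid5a, which stabilizes Il6 mRNA. It was 3.41-fold lower with shRNA (3.04 to 3.82), and 2.41-fold higher in unstimulated cells, where the interval began at 1.94. Over unstimulated cells, 3 of the 10 were called higher with shRNA and 4 without, beside 6.3% and 7.07% of all genes. Zc3h12a had the largest of these ratios, 26.1-fold with shRNA and 34.1-fold without.

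Genes most like each member were ranked by the root mean square difference of log2(CPM + 0.5) profiles, each centred on its mean, over the 4 libraries and 9907 other genes with 5 CPM in some library. The gene nearest to Il6 was Lif, at 0.17, and the next were Cish (0.49), the chemokine gene Cxcl3 (0.50), Cd69 (0.52) and Mmp3 (0.58). With 0 reads of Il6 in both unstimulated libraries, its profile there was set by the added 0.5 CPM. Lif and Il27 also lay under 0.5 CPM in those libraries, so closeness there partly reflects the added value. Osm, the fourth nearest of Lif at 0.59, had Dusp8 (0.21) and Slc7a11 (0.27) as its own nearest genes. Il27 lay nearest to the histidine decarboxylase gene Hdc (0.22), Mfap3l (0.24) and Prdm1 (0.25). Ebi3 lay nearest to Marcks (0.074), complement C3 (0.15) and Oasl1 (0.16), and Il15 to Sema4d (0.15) and the interferon-stimulated Oas1c (0.16), of a family with close copies. Il12a, Il12b, Il23a and Il10 had under 5 CPM in each library and were not ranked.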

How the data were processed

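Per the labels' protocols, mRNA libraries were sequenced as 50 bp reads. The submitters' processing notes name CASAVA 1.8, TopHat, HTSeq and NCBIM37. Other versions, the release of the annotation and whether counting used strand were not given in the sources used here. Raw HTSeq counts for each gene ID were deposited by the authors. They were checked to be whole numbers, and no 2 libraries were identical. Lines naming no gene held 32.5 to 34.4% of each table's total, of which alignments to several places made up 27.0 to 29.9% of the total, so genes with close copies can be undercounted. Symbols were matched for 32642 of 37681 IDs from GENCODE vM21, a table on another build used for names and exon lengths.

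Counts were scaled with edgeR 4.0.16 TMM in R 4.3.3. Ratios were counted for genes reaching 5 CPM in 1 of the libraries compared and had exact conditional binomial 95% intervals (SciPy 1.17.1). Ratios of stimulation folds had delta-method intervals and needed 10 counts in every library and 5 CPM in one. A 0 was replaced by 3 counts per library, and the fold against that floor was given with the start of its exact interval. Intervals and floors cover counting error only, since reads carry no molecular identifiers. The code was tested on simulated data. Members and lists were chosen with earlier results of these data known. Named were all members, up to 4 genes of each list with the largest ratios, and up to 5 nearest genes per member; Il6st, Il6ra, Stat3, Apobr, sex-linked and marker genes were named besides these. Of the lists, 3 genes are not reported here and were left out of the list counts. Alternatives were library totals, DESeq2 1.42.0 size factors, upper-quartile scaling, other CPM and fold limits and 0.5 added counts.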

Additional observations from a re-analysis of the deposited data

Results flagged for a closer look

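Il15 differed in opposite directions after Pam3Cys4 in the 2 shRNA states, each compared in single libraries. Its stimulation ratio was 1.96 with shRNA and 0.444 without. With 1 library per group the difference between the states was not tested, and the interval of the ratio of stimulation folds given above covers counting error only.

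The transcription factor gene Maf, which can drive Il10 in macrophages, also differed in opposite directions. Its stimulation ratio was 3.75 with shRNA and 0.397 without, from 5259 and 1701 counts with shRNA and 2186 and 5681 without (Pam3Cys4 and unstimulated). That difference was not tested either.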

How the results depend on the processing

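Library totals, DESeq2 size factors, upper-quartile scaling and 0.5 added counts reversed no member's ratio. The largest shift from a scaling was 0.18 (log2, library totals), and outside the counting interval lay only Ebi3's stimulation ratios under library totals (log2 1.67 with shRNA and 1.92 without). The filter set how many members were counted, by construction. With no filter, 8 members were higher after Pam3Cys4 in each shRNA state and 1 (Il15) lower without shRNA; for shRNA over no shRNA, 5 were lower after Pam3Cys4, and 2 higher and 1 (Il23a) lower in unstimulated cells. At 1 CPM, 7 were higher and 1 lower after Pam3Cys4 without shRNA, beside 928 and 870 of 11578 genes. For shRNA over no shRNA at 1 CPM, 5 were lower after Pam3Cys4, beside 893 of 11716 genes. Unstimulated, 2 were higher with shRNA, beside 934 of 11634 genes. At 4-fold, 1 (Il15) was higher with shRNA after Pam3Cys4 and 0 unstimulated, beside 348 of 9702 and 287 of 9651 genes. At that threshold 1 (Lif) had a smaller stimulation fold with shRNA, beside 19 of 9857 genes. Over all genes, no filter gave 1289 higher and 892 lower after stimulation with shRNA (605 and 339 with the filter) and 1332 and 1242 without (676 and 622), and for shRNA over no shRNA 1610 and 1449 after Pam3Cys4 (873 and 541 with the filter) and 1318 and 1482 unstimulated (676 and 465). At 1 CPM the lower counts were 526 for stimulation with shRNA, and 893 and 791 for shRNA after Pam3Cys4 and unstimulated. A 1.5-fold threshold gave 1301 higher and 1053 lower for stimulation with shRNA and 1455 and 1493 without, 1654 and 1167 for shRNA after Pam3Cys4, 1277 and 985 unstimulated, and 711 larger and 563 smaller stimulation folds (191 and 162 at 2-fold). A 4-fold threshold gave, in the same order, 197 and 31, 227 and 60, 348 and 223, 287 and 218, and 25 and 19. No library could be left out and no paired analysis was possible because each group had 1 library. Depth limits Il12a, Il10 and the unstimulated levels of Il6, Il12b, Il23a and Il27.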

Other observations

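Genes known to respond to IL-10 and STAT3 were mostly higher after stimulation. Of 9 genes, all measured, 5 were called higher after Pam3Cys4 with shRNA (median log2 2.46) and 8 without (median log2 2.04), and 0 were called lower, beside 6.3% and 7.07% of all genes called higher. The list shares Socs3, Bcl3, Nfil3 and Zfp36 with other lists used above. Tnfrsf1b, a TNF receptor, was 11.6-fold higher with shRNA (11.4 to 11.8) and 21.2-fold higher without (20.3 to 22.1). Il1rn, the IL-1 receptor antagonist, was 6.40-fold higher with shRNA (6.26 to 6.55) and 16.2-fold higher without (15.5 to 16.8). In unstimulated cells Tnfrsf1b was 4.37-fold (4.17 to 4.57) and Il1rn 3.12-fold higher with shRNA (2.99 to 3.27), and Socs3 was 4.11-fold lower (3.63 to 4.65). Of the list, 3 were called higher there and 1 lower, beside 7% and 4.82% of all genes. Between the stimulated libraries 1 of the 9 was called higher with shRNA and 0 lower, beside 9% and 5.58% of all genes. In those libraries Tnfrsf1b stood at 2175 CPM with shRNA and 910 CPM without, and Il1rn at 906 and 731 CPM.

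Other ligands of the same families were nearly absent. Of 13 genes (Il11, Il31, Cntf, Ctf1, Clcf1, Il19, Il20, Il22, Il24, Il2, Il7, Il9 and Il21), none reached 5 CPM in any library. Il7 had the most reads, 19 and 4 counts with shRNA (Pam3Cys4 and unstimulated) and 3 and 3 without.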
